A study of Mus musculus with 48 samples.

Results

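The 10 genes described here make up the program of fatty acid synthesis under the transcription factors SREBP1 and ChREBP. They were chosen by name, not by a measured value, and are Srebf1, Mlxipl, Fasn, Acaca, Acacb, Acly, Scd1, Elovl6, Thrsp and Pnpla3. All 10 were found among the 46517 mouse genes counted, and all 10 passed the filter on low values in every comparison. Their levels were compared over 5 groups: explants, naïve irises, livers, freshly isolated hepatocytes and spheroids kept in vitro.

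Srebf1 encodes SREBP1, which is cut at the Golgi membrane and enters the nucleus when insulin signaling is high. Mlxipl encodes ChREBP, which is activated by metabolites of glucose. In the fed liver both factors turn on the enzymes that make fatty acids from citrate: Acly gives cytosolic acetyl-CoA, Acaca and Acacb carboxylate it to malonyl-CoA, Fasn builds palmitate, Elovl6 lengthens it and Scd1 introduces a double bond. Thrsp encodes Spot 14, a small protein that promotes lipogenesis, and Pnpla3 encodes a lipid droplet protein with lipase and acyltransferase activity.

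To learn which features of the liver the grafts keep, bulk RNA of 16 samples was sequenced by Smart-seq3, each as 3 technical libraries that were summed. Explants (n = 5) were spheroids of primary hepatocytes that had engrafted in the anterior chamber of the eye (ACE) of recipient mice, taken with the iris around them at 2 months post-transplantation. Irises without a graft (n = 3), endogenous livers of donor mice (n = 3), hepatocyte fractions freshly isolated from donor livers (n = 3) and in vitro spheroids of such hepatocytes (n = 2) were the other groups. All samples were labelled wild-type albino C57BL/6N, and their labels give no age or sex. Per the study's methods, mice were fed normal chow and spheroids were formed in medium with insulin and dexamethasone, whereas the hepatocyte fractions were enriched by density and can hold other liver cells. Total counts ranged from 2718518 in a hepatocyte fraction to 6789648 in an explant, and the spheroids had 3247327 and 3447643. The labels do not say which samples came from separate mice, so p-values measure the spread between these samples only. Hepatocyte markers were present in the groups labelled as liver or hepatocyte, with 12 of 12 genes at a mean of 1 TPM or more in each and a summed level of 16893 to 21232 TPM per sample.

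An explant is mostly iris. Its iris share, solved from the deposited tables, was lowest in explant 6 (59%) and explant 2 (68%), followed by explants 5 (72%), 4 (81%) and 1 (82%). Levels of explants are therefore given in TPM (transcript counts scaled by length and library size) before correction and after the iris contribution, taken as this share times the mean of the irises, had been subtracted and the rest divided by the share of graft. For Mlxipl the subtracted part was 17.5% to 39.6% of the explant's TPM and for Scd1 12.4% to 32.5%, the smallest among the 10 genes. It was 31.4% to 58.8% for Fasn and 48.5% to 70.7% for Srebf1. For Acaca, Acacb, Acly and Elovl6 it lay between 55.0% and 84.7%. For Thrsp it reached 101.8% in explant 4, and for Pnpla3 172% in explant 2 and 139% in explant 4, so that the corrected level of these genes is listed at 0 in those explants. The corrected levels of Acaca, Acly, Elovl6, Thrsp and Pnpla3 thus rest on small differences between an explant and the irises. In bulk samples, fewer cells of a type and less RNA per cell cannot be told apart.

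**Figure D1:**
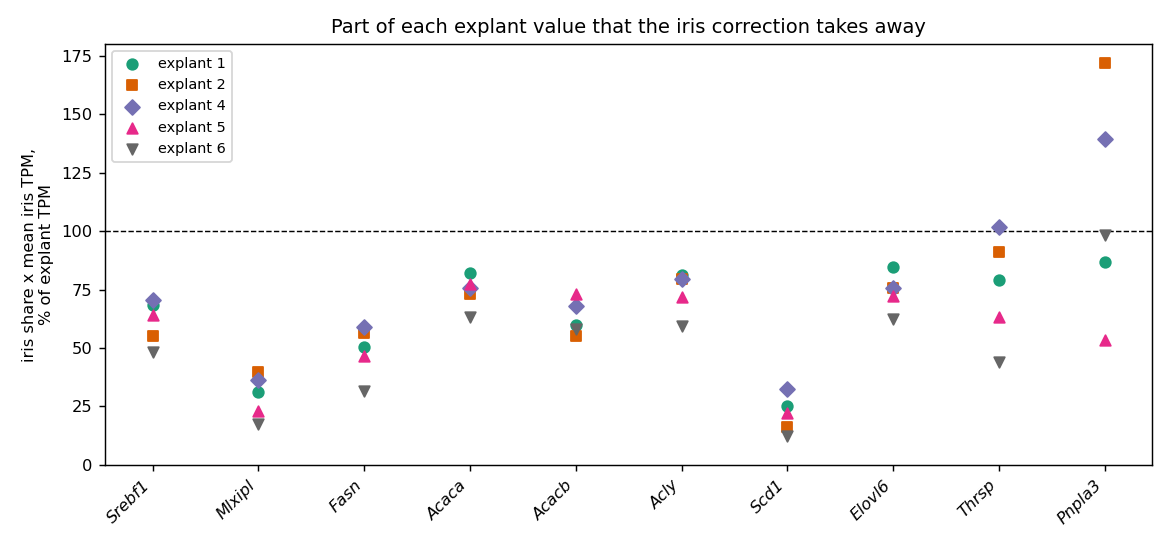
Iris contribution as a percentage of the TPM of each explant (y axis), by gene (x axis) and explant (symbol). Scd1 and Mlxipl stay at or under 39.6%, whereas 1 explant for Thrsp and 2 explants for Pnpla3 lie above 100%, marked by the dashed line.

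In GRCm38, Srebf1 (ENSMUSG00000020538) lies on chromosome 11 from 60199089 to 60222581 on the minus strand, with 18 merged exons of 5634 bases. Mlxipl (ENSMUSG00000005373) lies on chromosome 5 from 135089890 to 135138382 on the plus strand, with 15 merged exons of 5538 bases. Acly, Acaca and Fasn are also on chromosome 11, and Acacb is on chromosome 5. Scd1 is on chromosome 19, Elovl6 on chromosome 3, Thrsp on chromosome 7 and Pnpla3 on chromosome 15. Reads that overlapped several genes were counted for each of them and strand was not used, so shared exons matter. Of the exonic bases, 3.11% of Srebf1 overlap Mir6922 or Rai1, 4.24% of Mlxipl overlap Gm43500 and 0.529% of Elovl6 overlap Gm35986, while the other 7 genes share 0 bases.

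Promoter windows from RefSeq (GRCm38.p6), 250 bases before to 50 bases after a start, were at hand for 9 of the 10 genes. Shown are the windows of the genes that were called in a comparison, except Scd1, and those of Fasn, the central enzyme, and Pnpla3. Each is written 5′ to 3′ on the strand of the gene, and capitals mark the motifs searched on both strands. The Mlxipl windows are chr5:135089640-135089939 and, for the downstream start, chr5:135106641-135106940 (plus strand). Fasn is at chr11:120824498-120824797 and Thrsp at chr7:97417501-97417800 (minus strand), and Acacb at chr5:114165268-114165567, Elovl6 at chr3:129532136-129532435 and Pnpla3 at chr15:84167566-84167865 (plus strand).
Mlxipl upstream: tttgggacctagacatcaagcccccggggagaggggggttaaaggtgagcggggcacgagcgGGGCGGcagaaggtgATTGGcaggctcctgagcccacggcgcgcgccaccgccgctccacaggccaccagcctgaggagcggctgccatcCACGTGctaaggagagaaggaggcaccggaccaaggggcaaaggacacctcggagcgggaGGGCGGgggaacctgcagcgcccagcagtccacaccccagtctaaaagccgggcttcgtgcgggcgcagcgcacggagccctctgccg
Mlxipl downstream: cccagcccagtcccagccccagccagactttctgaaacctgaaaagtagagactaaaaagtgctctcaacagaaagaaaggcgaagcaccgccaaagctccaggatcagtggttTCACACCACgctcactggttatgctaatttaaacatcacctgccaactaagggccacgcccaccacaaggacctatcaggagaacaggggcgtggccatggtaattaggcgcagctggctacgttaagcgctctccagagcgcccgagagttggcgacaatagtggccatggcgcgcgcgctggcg
Fasn: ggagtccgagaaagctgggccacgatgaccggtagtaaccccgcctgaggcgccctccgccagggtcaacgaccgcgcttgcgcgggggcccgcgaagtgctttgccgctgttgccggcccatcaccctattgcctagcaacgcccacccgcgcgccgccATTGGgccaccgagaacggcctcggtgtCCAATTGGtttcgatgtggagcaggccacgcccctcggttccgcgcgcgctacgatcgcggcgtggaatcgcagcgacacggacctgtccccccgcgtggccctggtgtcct
Acacb: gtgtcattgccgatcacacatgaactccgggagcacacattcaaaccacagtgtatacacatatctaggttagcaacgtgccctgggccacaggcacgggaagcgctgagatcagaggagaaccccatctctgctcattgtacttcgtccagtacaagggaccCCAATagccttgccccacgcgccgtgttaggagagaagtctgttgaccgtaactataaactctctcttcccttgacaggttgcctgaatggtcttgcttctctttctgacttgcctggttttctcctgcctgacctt
Elovl6: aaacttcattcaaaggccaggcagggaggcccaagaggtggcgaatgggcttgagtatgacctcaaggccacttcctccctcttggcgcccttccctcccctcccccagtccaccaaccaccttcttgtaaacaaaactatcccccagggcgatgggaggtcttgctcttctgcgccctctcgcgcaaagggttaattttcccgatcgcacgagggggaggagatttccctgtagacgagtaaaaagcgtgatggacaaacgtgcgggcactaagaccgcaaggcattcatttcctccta
Thrsp: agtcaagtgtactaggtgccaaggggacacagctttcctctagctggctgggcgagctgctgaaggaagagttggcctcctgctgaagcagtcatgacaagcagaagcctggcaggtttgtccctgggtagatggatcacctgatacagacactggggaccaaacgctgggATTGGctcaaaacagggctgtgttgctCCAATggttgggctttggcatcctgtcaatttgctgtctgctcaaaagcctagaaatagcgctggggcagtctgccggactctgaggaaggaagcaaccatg
Pnpla3: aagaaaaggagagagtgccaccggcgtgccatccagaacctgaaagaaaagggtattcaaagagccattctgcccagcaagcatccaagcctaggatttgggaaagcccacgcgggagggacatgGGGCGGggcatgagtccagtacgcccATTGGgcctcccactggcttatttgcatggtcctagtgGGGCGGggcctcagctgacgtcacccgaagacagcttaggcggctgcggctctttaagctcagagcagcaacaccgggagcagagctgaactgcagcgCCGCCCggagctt

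The E box CACGTG, which USF factors bind, occurs in the upstream window of Mlxipl at position -98 from the start, and in 7.15% of the 32851 windows searched. These did not cover every chromosome, and the shares of all windows and all genes given below are of those searched. The letters TCACNCCAC of a sterol regulatory element occur at -136 in the downstream window of Mlxipl, and in 1.24% of all windows. The CCAAT box (CCAAT), bound by NF-Y, occurs in 7 of the 9 genes with a window, against 41.1% of all genes. In Fasn it occurs 3 times, at -90, -62 and -59, where the last 2 overlap on opposite strands, and in Thrsp it occurs at -79 and -52. The GC box GGGCGG, bound by SP1, occurs in 4 of the 9 genes, against 38.2% of all genes. The windows of Elovl6 and Acaca hold none of these motifs. The only windows of Acaca and Acacb lie at the starts 84195438 and 114165518, inside genes that begin at 84129672 and 114146535. Bases before the first exon of Acaca and of Acacb were therefore not searched. The carbohydrate response element was found in 0 of the 9 genes and in 0.137% of all genes. These matches are letters in a window and do not show binding.

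Across the 6 comparisons, Mlxipl was called most often, Srebf1, Fasn, Acaca, Acly and Pnpla3 were not called in any, and the remaining 4 genes were called once each. Calls required an absolute log2 difference over 1 and a p, adjusted by Benjamini-Hochberg over all genes tested, under 0.05. Between explants and irises, 2 of the 10 genes were called, Mlxipl and Scd1, both higher in explants, where 6.47% of the 16764 genes tested were called and 6.16% were called higher. Explants held 59% to 82% iris, so this comparison dilutes any difference of the graft. For a gene well expressed in iris, a graft at the level of liver could stay under the fold limit. The lack of a call there does not show a low level in the graft. Between hepatocytes and livers, 0 of 10 were called with edgeR, where 2.72% of 12236 genes were (0.409% higher and 2.31% lower). An unadjusted p under 0.05 was reached by 2 genes in that comparison, and DESeq2 called 1 (Mlxipl). Between spheroids and hepatocytes, 3 of 10 were called, all lower in spheroids (Acacb, Mlxipl and Thrsp), where 17.2% of 12247 genes were called, 8.13% higher and 9.11% lower. The median log2 difference of the 10 genes between spheroids and hepatocytes was -0.97, with 9 of 10 below 0, against 0.01 for all genes tested. It was -0.29, with 5 of 10 below 0, without hepatocyte fraction 1. Scaled by library size alone, the median of all genes moved to 0.27 and that of the 10 genes to -0.71, and 65.5% of all calls were higher in place of 47.2%. Corrected explants enter 3 of the comparisons and hepatocytes also 3, so the comparisons are not independent of each other.

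Corrected explants were lower than livers in Elovl6, the only gene called of 10, where 14.8% of 21002 genes were called and 3.01% were called lower. They were lower than hepatocytes in Mlxipl, again 1 of 10, where 19% of 20726 genes were called and 3.28% were called lower. Against spheroids, 0 of 10 were called by limma, where 5.95% of 21217 genes were (5.00% higher and 0.957% lower), and 2 reached an unadjusted p under 0.05. The median log2 difference of the 10 genes was -1.03 against livers, -0.67 against hepatocytes and -0.52 against spheroids, whereas that of all genes tested was 0.61, 0.75 and 0.54. The log2 difference was below 0 in 9, 9 and 7 of the 10 genes. After scaling the explants to 491 hepatocyte genes, whose median differed by -0.64 from livers and by -0.75 from hepatocytes, it was below 0 in 8 of 10 against livers and in 5 of 10 against hepatocytes. With this scaling 94.0% of all calls against livers were higher in explants, in place of 79.6%, and 95.3% against hepatocytes, in place of 82.7%, and the median of the 10 genes was -0.42 and 0.07, beside 0.98 and 1.15 for all genes. This scaling shifts all genes alike. Without hepatocyte fraction 1, 5 of 10 were below 0 against hepatocytes, with a median of 0.04, beside 0.78 for all genes. Without liver 2, 7 of 10 were below 0 against livers, with a median of -0.63, beside 0.60 for all genes.

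The samples of both groups did not overlap for 4 of 10 genes between explants and irises (Srebf1, Mlxipl, Fasn and Scd1, all higher in explants), as for 24.9% of all genes (10.9% higher). Between hepatocytes and livers this held for Mlxipl (higher) and Srebf1 (lower), as for 31.2% of all genes, 7.35% higher and 23.8% lower. For spheroids against hepatocytes it held for the 3 called genes, as for 60.0% of all genes, 44.2% higher and 15.8% lower. Corrected explants lay below all livers in 4 of 10 genes (Srebf1, Acaca, Elovl6 and Thrsp), where 28.5% of all genes did not overlap, 19.8% higher and 8.74% lower. They lay below all hepatocyte fractions in Mlxipl alone, where 31.5% of all genes did not overlap and 8.38% were lower. Against spheroids, Srebf1 and Acacb lay higher and Mlxipl and Acaca lower, where 26.6% of all genes did not overlap, 17.1% higher and 9.47% lower.

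**Figure D2:**
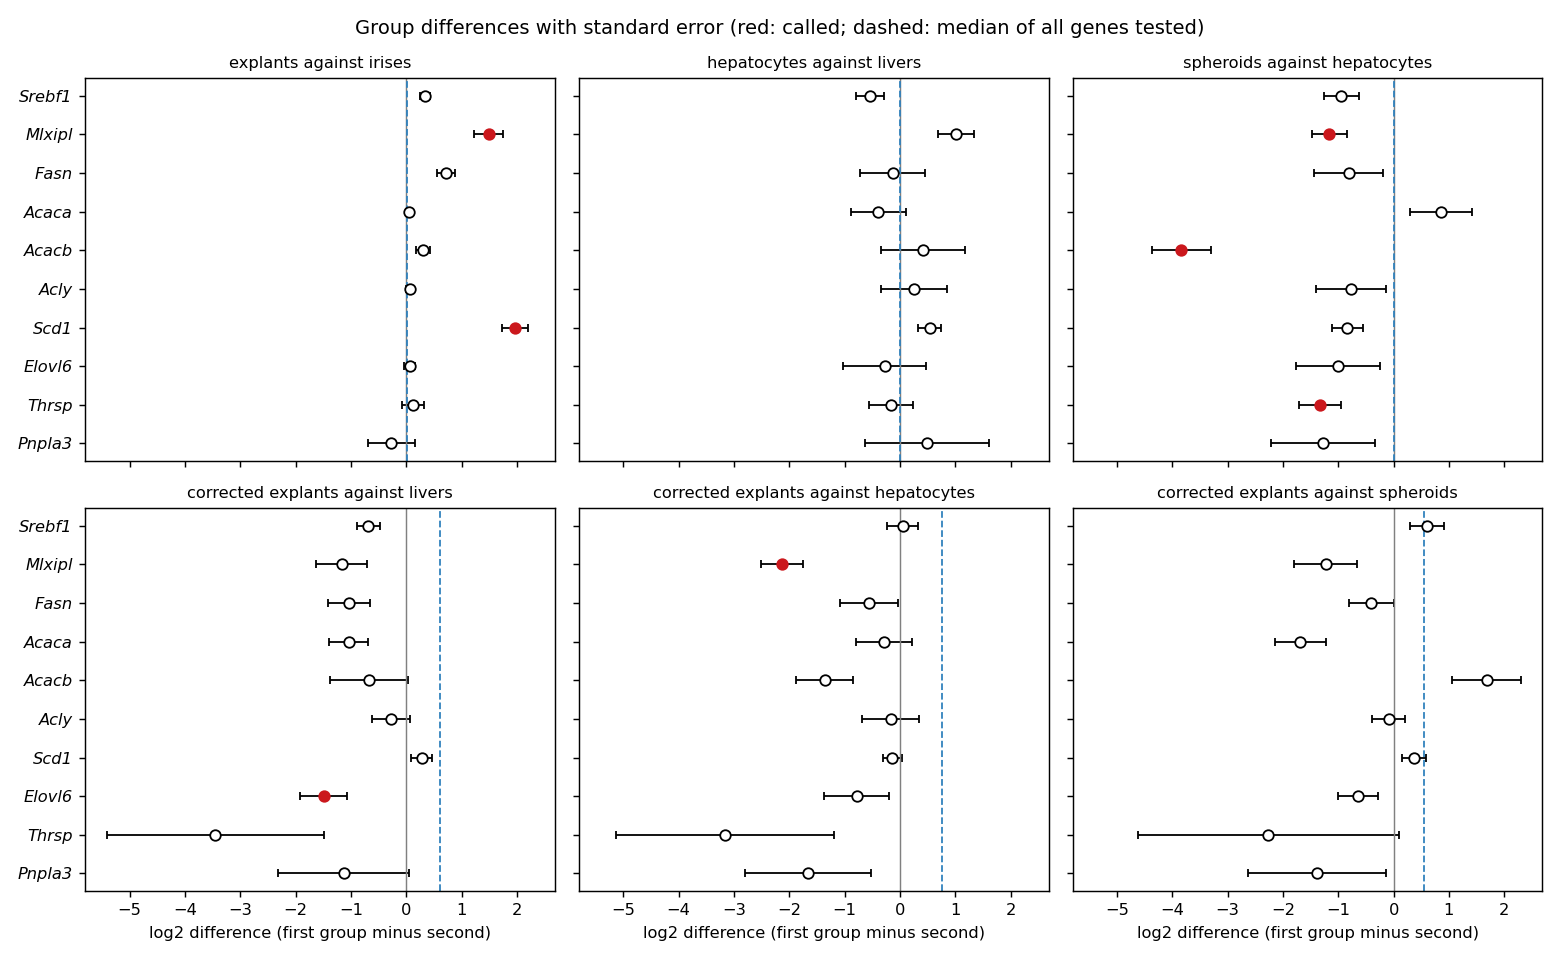
Log2 difference of each gene (x axis, first group minus second, with standard error) in the 6 comparisons. Filled red points were called, open points were not, and the dashed line is the median of all genes tested, which lies at 0.61, 0.75 and 0.54 in the comparisons of corrected explants.

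Srebf1, the SREBP1 gene, was highest in the livers. They had 143, 176 and 165 TPM, the hepatocyte fractions 137, 63.7 and 101 TPM, and the spheroids 79.1 and 54.0 TPM. The irises had 54.5, 59.0 and 62.1 TPM, and the explants 70.2, 72.3, 67.1, 65.8 and 71.3 TPM before correction and 123, 101, 104, 84.5 and 89.6 TPM after it. All livers lay above all hepatocyte fractions, and the irises overlapped with the spheroids. Explants lay above irises without overlap, by 0.35 ± 0.09 on the log2 scale (SE, adjusted p = 0.0348, edgeR), which is under the fold limit. The log2 difference of hepatocytes from livers was -0.54 ± 0.25 (adjusted p = 0.219, edgeR) and that of corrected explants from livers -0.68 ± 0.21 (adjusted p = 0.0585, limma), neither of which passed the test. In spheroids against hepatocytes it was -0.94 ± 0.31 (adjusted p = 0.0606, edgeR), and leaving out hepatocyte fraction 2, the lowest of the 3, gave -1.16 with an adjusted p of 0.0155.

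Mlxipl, the ChREBP gene, was highest in freshly isolated hepatocytes and lowest in the iris. The hepatocyte fractions had 92.2, 94.8 and 113 TPM, the livers 29.4, 79.2 and 54.8 TPM, and the spheroids 82.5 and 33.3 TPM. The irises had 2.93, 3.59 and 3.18 TPM, and the explants 8.45, 5.54, 7.22, 10.1 and 10.9 TPM before correction and 32.2, 10.5, 24.2, 27.6 and 21.9 TPM after it. All hepatocyte fractions lay above all livers and spheroids, every explant lay above every iris, and the corrected explants overlapped with liver 1 only. Mlxipl was higher in explants than in irises by 1.49 ± 0.26 on the log2 scale (adjusted p = 0.00695, edgeR), with 60 to 130 counts per explant and 27 to 31 per iris. Leaving out iris 1 moved the adjusted p to 0.0507. It was lower in corrected explants than in hepatocytes by a log2 difference of -2.14 ± 0.38 (adjusted p = 0.00442, limma), and stayed called when any sample was left out, from -2.27 to -1.89.

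The difference of Mlxipl between spheroids and hepatocytes was close to the limits of the test. The log2 difference was -1.16 ± 0.32 (adjusted p = 0.0320, edgeR), but the call was lost without hepatocyte fraction 1, 2 or 3 (adjusted p = 0.0505, 0.0604 and 0.112) and without spheroid sample 2, the lower of the pair (-0.74, adjusted p = 0.0735). Between hepatocytes and livers it was 1.01 ± 0.33 (adjusted p = 0.110, edgeR). Against livers and spheroids, corrected explants differed by -1.17 ± 0.46 and -1.22 ± 0.57 (adjusted p = 0.120 and 0.302, limma), which the test did not call.

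**Figure D3:**
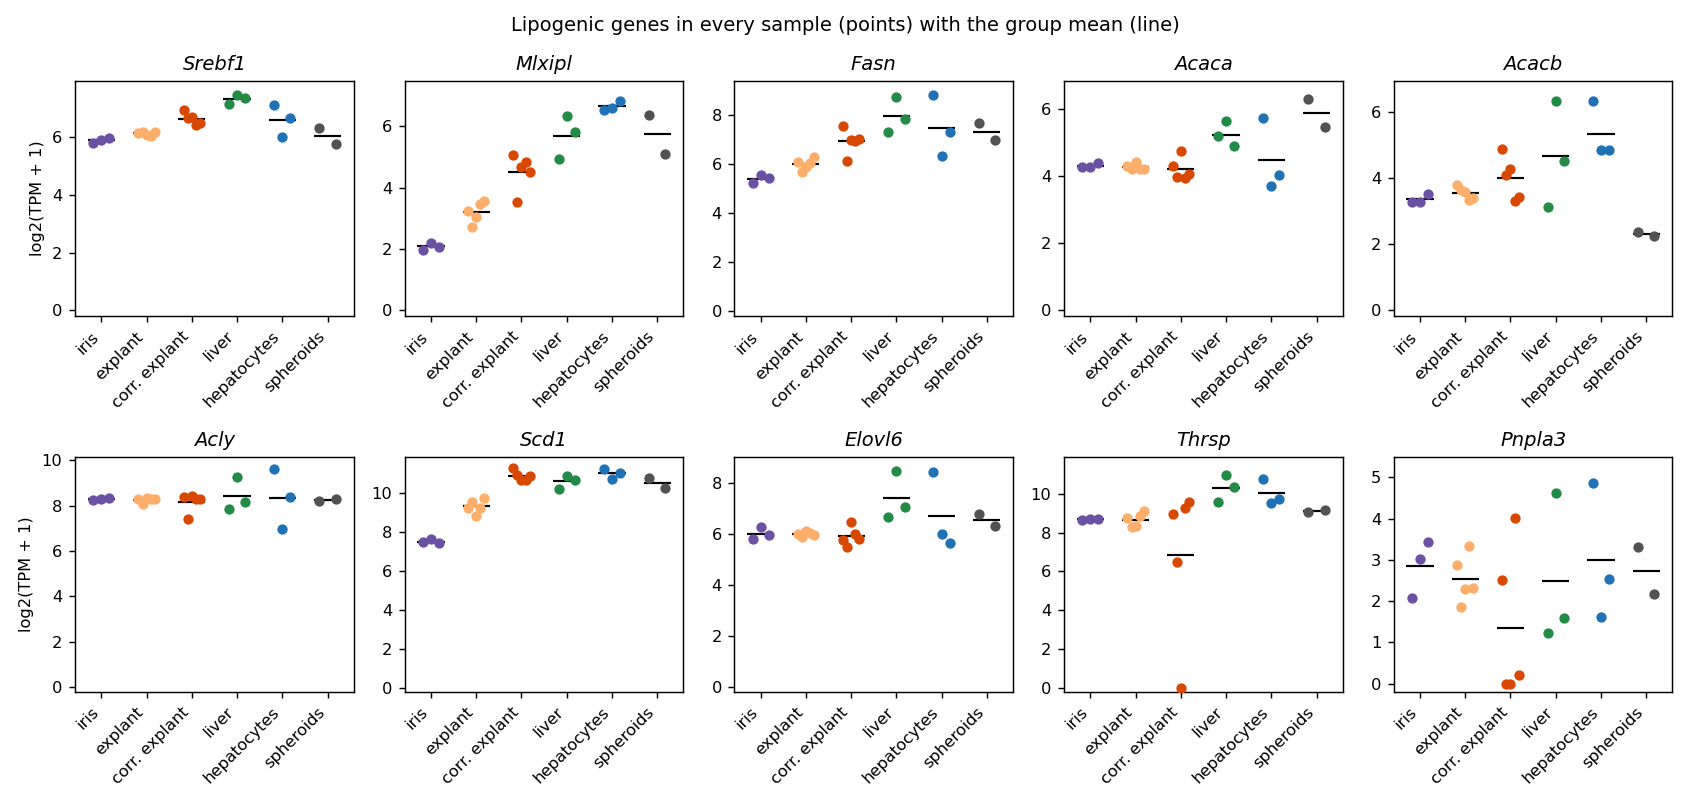
Level of each gene in log2(TPM + 1) (y axis) in every sample, by group (x axis), with explants before and after iris correction (corr. explant). Points are samples and lines are group means of the log2 values. Mlxipl and Scd1 are lowest in the irises, Acacb is lowest in the spheroids, and the corrected levels of Thrsp and Pnpla3 are the most scattered, with values at 0.

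Acly, ATP citrate lyase, was as high in iris as in the groups of liver cells. The irises had 307, 313 and 317 TPM and the explants 315, 267, 317, 313 and 310.1 TPM before correction. The livers had 231, 606 and 286 TPM, the hepatocyte fractions 784, 124 and 332 TPM, and the spheroids 290.3 and 312 TPM. The range of the irises fell within that of the livers and of the hepatocyte fractions. Explants and irises differed by 0.06 ± 0.07 on the log2 scale (adjusted p = 0.585, edgeR), and the corrected explants, at 292 ± 69.0 TPM (SD, n = 5), differed from livers by -0.27 ± 0.35 (adjusted p = 0.596, limma). Acly was the gene with the smallest difference between iris and liver, the mean of the irises being 0.833 of that of the livers.

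The 2 acetyl-CoA carboxylase genes differed in their pattern. Acaca, the cytosolic form that feeds fatty acid synthesis, had 78.9 and 43.5 TPM in spheroids, 35.8, 49.3 and 28.7 TPM in livers, and 52.4, 12.1 and 15.4 TPM in hepatocyte fractions. Acacb, the form at the mitochondrial surface whose product restrains fatty acid oxidation, had 4.18 and 3.76 TPM in spheroids, 7.67, 80.1 and 22.1 TPM in livers, and 80.5, 28.05 and 27.9 TPM in hepatocyte fractions. Spheroids were thus the highest group by mean for Acaca and the lowest for Acacb, and for Acacb they lay below every other sample. Acacb was lower in spheroids than in hepatocytes by a log2 difference of -3.84 ± 0.54 (adjusted p = 0.00254, edgeR), the largest difference among the 10 genes in this comparison. The call held with each sample left out, from -4.06 to -3.14.

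For Acaca the difference between spheroids and hepatocytes was 0.86 ± 0.56 on the log2 scale (adjusted p = 0.297, edgeR). Without hepatocyte fraction 1, the highest of the 3, the difference was larger and called (1.81, adjusted p = 0.00617), and Acaca was then also called lower in hepatocytes than in livers (-1.31, adjusted p = 0.0403). In the eye, Acaca had 18.2, 18.4 and 20.2 TPM in irises and 18.9, 17.6, 20.3, 17.6 and 17.7 TPM in explants, so the groups overlapped. Corrected explants, at 17.9 ± 4.83 TPM, lay below all livers and all spheroids. The log2 difference was -1.04 ± 0.35 against livers (adjusted p = 0.0775, limma) and -1.69 ± 0.46 against spheroids (adjusted p = 0.0780), and neither was called. With the filter set at a mean of 10 TPM, both were (adjusted p = 0.0419 and 0.0450). Leaving out explant 4, the highest, also called Acaca against livers (-1.18, adjusted p = 0.0379).

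Acacb in the corrected explants, at 28.4, 16.1, 18.6, 8.86 and 9.65 TPM, lay above both spheroid samples and below or within the range of hepatocytes and livers. The log2 difference was 1.68 ± 0.62 against spheroids (adjusted p = 0.192, limma) and -1.36 ± 0.51 against hepatocytes (adjusted p = 0.0951), neither of which was called. In the irises Acacb had 8.72, 8.60 and 10.5 TPM, and in the explants before correction 9.16 to 12.7 TPM.

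Fasn, fatty acid synthase, had 156, 418 and 229 TPM in livers, 446, 78.6 and 157 TPM in hepatocyte fractions, and 201 and 126 TPM in spheroids. The irises had 36.6, 46.4 and 41.6 TPM and the explants 67.5, 50.2, 57.2, 64.0 and 77.9 TPM before correction. All explants lay above all irises, while livers, hepatocyte fractions and spheroids overlapped. The difference between explants and irises was 0.71 ± 0.16 on the log2 scale (adjusted p = 0.0196, edgeR), under the fold limit. The corrected explants had 186, 68.6, 124, 122 and 130.3 TPM, overlapping with liver 1, and differed from livers by -1.03 ± 0.38 (adjusted p = 0.105, limma).

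Elovl6, the elongase of palmitate, had 101, 356 and 131 TPM in livers, 341, 62.4 and 49.2 TPM in hepatocyte fractions, and 109.8 and 78.2 TPM in spheroids. The irises had 55.1, 76.7 and 61.0 TPM, and the explants 62.2, 57.7, 68.7, 63.9 and 60.7 TPM before correction and 52.8, 43.7, 87.8, 62.8 and 55.5 TPM after it. All corrected explants lay below all livers, and explants and irises overlapped. Elovl6 was lower in corrected explants than in livers by a log2 difference of -1.49 ± 0.42 (adjusted p = 0.0421, limma). This call was lost without explant 1, 2, 5 or 6 (adjusted p = 0.0690, 0.0710, 0.0698 and 0.0588), without liver 2, the highest liver (-0.95, adjusted p = 0.170), without liver 3 (adjusted p = 0.102), and after scaling to hepatocyte genes (-0.87, adjusted p = 0.179).

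Scd1, stearoyl-CoA desaturase, was the most abundant of the 10 genes in every group except the irises, where Thrsp and Acly were higher. The livers had 1198, 1926 and 1661 TPM, the hepatocyte fractions 2467, 1729.7 and 2143 TPM, and the spheroids 1794 and 1217 TPM. The irises had 181, 197 and 172 TPM and the explants 599.9, 762, 458, 598 and 873 TPM before correction. Every explant exceeded every iris, and after correction, with 2498, 1993, 1627, 1665 and 1865 TPM, the explants overlapped with livers, hepatocyte fractions and spheroids alike. Scd1 was higher in explants than in irises by 1.96 ± 0.24 on the log2 scale (adjusted p = 0.00103, edgeR), and the call held with each sample left out, from 1.76 to 2.08. Corrected explants differed by 0.28 ± 0.19 from livers (adjusted p = 0.343, limma), by -0.13 ± 0.17 from hepatocytes (adjusted p = 0.572) and by 0.37 ± 0.21 from spheroids (adjusted p = 0.407). Scd1 was the only gene of the 10 with a log2 difference above 0 against livers. Before correction that difference was -1.28 (adjusted p = 0.000692). The highest counts per base of exon of Scd1 in a library were 0.588, 0.959 and 0.860 in the livers and 0.339 to 0.624 in the explants. Duplicate reads had been removed, and the effect of this on the comparison of Scd1 with livers was not tested.

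Thrsp, which encodes Spot 14, had 759, 1977 and 1307 TPM in livers, 1747, 739 and 842 TPM in hepatocyte fractions, and 523 and 578 TPM in spheroids. The irises had 405, 409 and 416 TPM and the explants 425, 306, 326, 467 and 547 TPM before correction. Spheroids lay below all hepatocyte fractions and above all irises, and explants overlapped with irises. Thrsp was lower in spheroids than in hepatocytes by a log2 difference of -1.32 ± 0.38 (adjusted p = 0.0374, edgeR). The call was lost without hepatocyte fraction 1 (-0.84), hepatocyte fraction 3 (adjusted p = 0.0623), spheroid sample 1 (adjusted p = 0.166) or spheroid sample 2 (adjusted p = 0.0892). The corrected explants had 494, 87.0, 0, 612 and 745 TPM, all below the lowest liver, and the difference of -3.45 ± 1.97 (adjusted p = 0.268, limma, on the log2(TPM + 1) scale) rested on explant 4 at 0, without which it was -1.74 (adjusted p = 0.142).

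Pnpla3 was the least abundant of the 10 genes in liver and hepatocytes. The livers had 1.35, 23.7 and 1.99 TPM from 9, 156 and 14 counts, and the hepatocyte fractions 27.9, 2.06 and 4.84 TPM from 185, 12 and 25 counts. The spheroids had 8.85 and 3.47 TPM, the irises 3.23, 7.05 and 9.80 TPM, and the explants 6.33, 2.65, 3.89, 9.05 and 4.02 TPM before correction. All groups overlapped. No difference was called, and the standard error of the log2 difference was 0.42 to 1.25 over the 6 comparisons. With no filter on low counts, Pnpla3 was called lower in spheroids than in hepatocytes (-1.23, adjusted p = 0.00239, edgeR). That fit had a standard error of 0.34, against 0.94 with the filter. With the filter and without hepatocyte fraction 1, the difference was 0.49 (adjusted p = 0.594, edgeR).

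The livers and the hepatocyte fractions differed widely among themselves in most of these genes. Liver 2 had the highest level of the 3 livers in 10 of the 10 genes, whereas over the 16170 genes with a mean of at least 1 TPM in liver it was highest in 28.6%. Hepatocyte fraction 1 was highest in 9 of the 10 genes, Mlxipl being the exception, against 39.3% of 14634 genes. The ratio of the highest to the lowest liver was 17.5 for Pnpla3, 10.4 for Acacb, 3.53 for Elovl6 and 2.60 to 2.69 for Mlxipl, Fasn, Acly and Thrsp. It was 1.72 for Acaca, 1.61 for Scd1 and 1.23 for Srebf1. Among the hepatocyte fractions it was 13.6 for Pnpla3, 6.93 for Elovl6, 6.32 for Acly, 5.67 for Fasn and 4.35 for Acaca. It was 2.15 to 2.88 there for Srebf1, Thrsp and Acacb, 1.43 for Scd1 and 1.23 for Mlxipl. The median ratio of all genes was 1.45 in livers and 1.41 in hepatocyte fractions. A ratio as large as that of Acacb was found in 1.18% of the 8528 genes with a mean of at least 10 TPM in liver, and one as large as that of Acly in 1.73% of 7934 such genes in hepatocyte fractions. The shares for the smallest ratios were 63.4% for Srebf1 in livers and 60.4% for Mlxipl in hepatocyte fractions. For Fasn, the technical libraries ranged from 402 to 442 TPM in liver 2 and from 149 to 166 TPM in liver 1. For Pnpla3, at few counts, they ranged from 0 to 4.01 TPM in hepatocyte fraction 2 and from 26.3 to 29.2 TPM in hepatocyte fraction 1.

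Among the genes that supply carbon and NADPH to the pathway, liver 2 was highest in 9 of 16 (liver 1 in 4 and liver 3 in 3) and hepatocyte fraction 1 in 13 of 16. Pklr, pyruvate kinase of the liver, had 167, 539 and 291 TPM in livers and 675, 349 and 299.8 TPM in hepatocyte fractions. Me1, malic enzyme, had 139, 499 and 319 TPM in livers and 666, 244 and 184 TPM in hepatocyte fractions. For triglyceride synthesis, storage and export, liver 2 was highest in 9 of 23 genes and hepatocyte fraction 1 in 16, for fatty acid activation, elongation and desaturation in 6 and 9 of 15, and for the regulators in 8 and 11 of 22. The differences between these lists were not tested. The numbers of a liver and a hepatocyte fraction do not tie them to the same mouse.

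**Figure D4:**
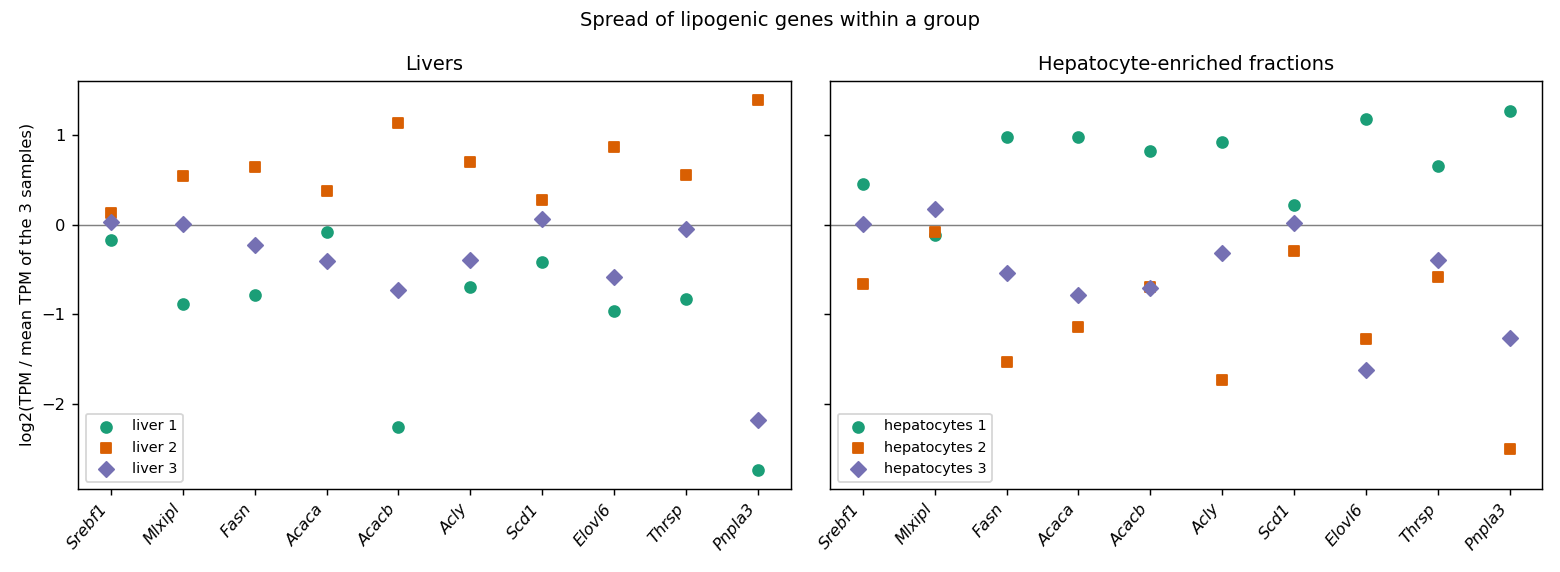
Log2 of the TPM of each sample over the mean of its group (y axis) for each gene (x axis) in the 3 livers (left) and the 3 hepatocyte fractions (right). Liver 2 is highest in 10 of 10 genes and hepatocyte fraction 1 in 9 of 10.

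For the lists that follow, 6.16% of all genes were called higher and 0.316% lower in explants against irises. These shares were 0.409% and 2.31% in hepatocytes against livers, and 8.13% and 9.11% in spheroids against hepatocytes. For corrected explants they were 11.8% and 3.01% against livers, 15.7% and 3.28% against hepatocytes, and 5.00% and 0.957% against spheroids. Among 22 regulators around SREBP1 and ChREBP, 1 was called higher in explants than in irises, Nr1h3, the nuclear receptor LXR alpha that activates Srebf1 (68.0 against 27.2 TPM, log2 difference 1.44, adjusted p = 0.0178, edgeR). In spheroids, 5 of 22 were called lower than in hepatocytes and 0 higher. The largest differences were in Irs2, an insulin receptor substrate (-2.93, from a mean of 3.68 to 0.583 TPM), Scap, the escort protein of SREBP (-1.48), Usf2 (-1.33) and Rxra (-1.05). Between hepatocytes and livers, 0 of 22 were called. In corrected explants, 5 of 22 were called higher and 1 lower than livers, and again 5 higher and 1 lower than hepatocytes, with 0 of 22 called against spheroids by limma. Srebf2, the paralog that drives cholesterol synthesis, was among the higher ones (1.56 against livers, adjusted p = 0.0368, limma), with 149, 158 and 154 TPM in irises, and Rxra was the lower one (-1.97, adjusted p = 0.00278).

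Of the 16 genes for substrate and NADPH supply, 6 were called higher in explants than in irises and 0 lower, beside 6.16% and 0.316% of all genes. They included Pklr (70.1 against 3.56 TPM, log2 difference 4.41) and Slc2a2, the glucose transporter GLUT2 (3.95). Corrected explants had lower Me1 than livers (66.0 against 319 TPM, -2.26, adjusted p = 0.0263, limma), hepatocytes (-2.41, adjusted p = 0.0170) and spheroids (-2.97, adjusted p = 0.0218), and higher G6pdx, the first enzyme of the pentose phosphate pathway, than livers (2.01, adjusted p = 0.00817) and hepatocytes (1.66, adjusted p = 0.0372). Against spheroids, Slc2a2 (-1.16, adjusted p = 0.0177) was also lower. Me1 had 40.4, 52.4 and 53.1 TPM in irises and 44.3 to 66.5 TPM in explants before correction. G6pdx had 71.7, 70.2 and 81.5 TPM in irises and 58.2 to 76.0 TPM in explants before correction. The corrected levels of Me1 and G6pdx thus rest on small differences between explants and irises. In spheroids against hepatocytes, Pgd, of the pentose phosphate pathway, was called higher (149 against 44.7 TPM) and Acss2, which makes acetyl-CoA from acetate, lower (-1.60). Between hepatocytes and livers, 0 of 16 were called.

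Downstream of Fasn, 7 of 15 tested genes of fatty acid activation, elongation and desaturation were called between spheroids and hepatocytes, 3 higher and 4 lower. Of all genes, 17.2% were called in this comparison. Elovl3, an elongase of very long chains, had the largest difference, with 501, 1331 and 1545 TPM in hepatocyte fractions and 9.16 and 9.70 TPM in spheroids (-7.23 ± 0.65, adjusted p = 0.000494, edgeR). Its level in livers was 37.3, 371 and 366 TPM, and it was called lower in corrected explants than in livers (-4.38, adjusted p = 0.0463, limma). Elovl7 (4.73) and Scd2 (2.68) were higher in spheroids than in hepatocytes, and Acsl1, which activates fatty acids, was lower (-2.33). Scd2, a desaturase prominent in brain, had 255, 322 and 287 TPM in irises. Between explants and irises, 4 of 16 were called, all higher, and between hepatocytes and livers 0 of 14. Corrected explants had 1 higher and 3 lower gene against livers, 2 and 2 against hepatocytes, and 0 called against spheroids.

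Of the genes for triglyceride synthesis, storage and export, 9 of 22 tested were called higher in explants than in irises, led by Cidec (4.58), Hsd17b13 (3.82), Tm6sf2 (3.53) and Plin5 (2.90), which act at lipid droplets or in the secretion of lipoproteins. Spheroids had 2 genes higher than hepatocytes (Plin3 and Plin4, both 1.31) and 2 lower (G0s2, -1.56, and Lipe, -1.38). Corrected explants were lower in Plin5, the perilipin of oxidative tissue, and Lpin1, a phosphatidate phosphatase, than livers (-1.21 and -1.20) and spheroids (-2.12 and -1.94). They were lower in Plin5 and Dgat2 than hepatocytes (-1.18 and -1.03). Cidea was called higher in corrected explants than in hepatocytes (3.24) and spheroids (2.75). Between hepatocytes and livers, 0 of 23 were called.

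**Figure D5:**
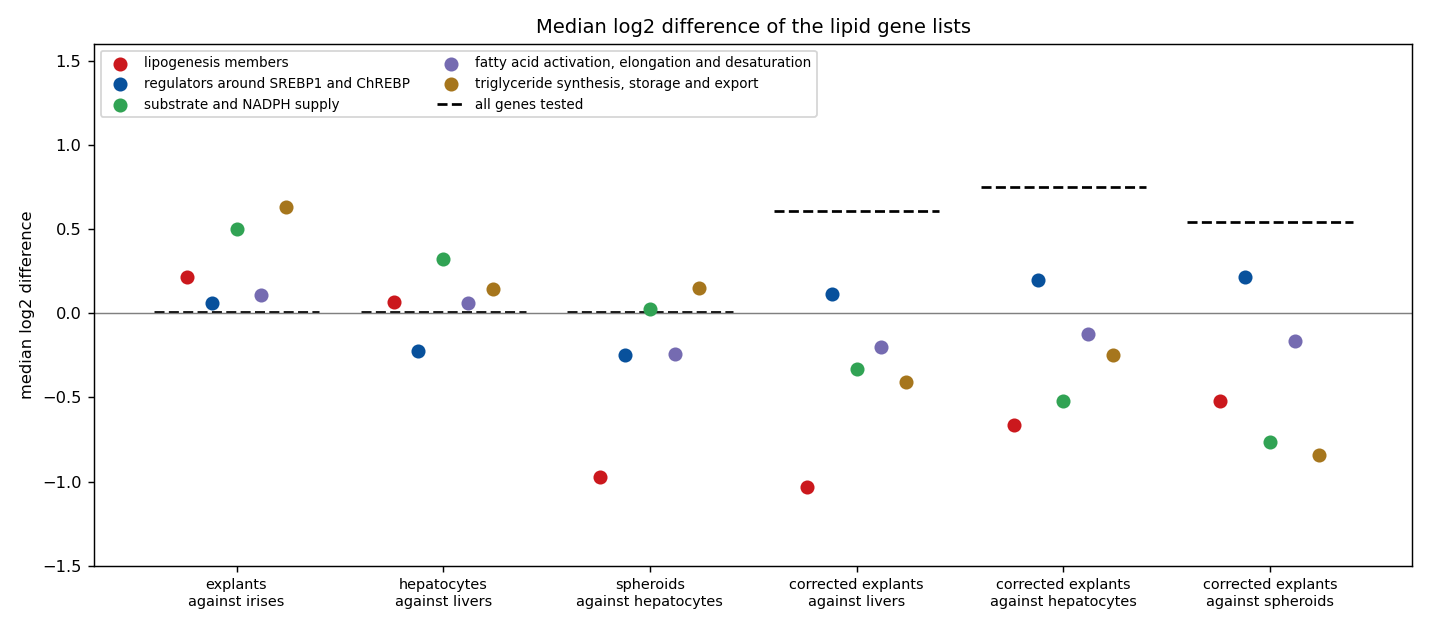
Median log2 difference (y axis) of the 10 lipogenic genes and 4 related lists in the 6 comparisons (x axis), with the median of all genes tested as a dashed line. The 10 lipogenic genes have the lowest median in spheroids against hepatocytes (-0.97) and in corrected explants against livers (-1.03) and hepatocytes (-0.67).

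Other cell types moved with these comparisons. In explants against irises, 12 of 12 hepatocyte markers and 6 of 10 macrophage markers were called higher, and 3 of 13 iris and lens markers lower. Of all genes, 6.16% were called higher and 0.316% lower there. Hepatocyte markers summed to 7094 to 9901 TPM in explants and to 1866 to 2248 TPM in irises, where 12 of 12 had a mean of at least 1 TPM. Iris and lens markers summed to 10756 to 11476 TPM in irises, 641 to 644 TPM in livers and 633 to 675 TPM in hepatocyte fractions. The source of marker levels outside their own tissue was not tested, and it limits how iris and liver levels can be read. Macrophage markers summed to 1309 to 3535 TPM in explants and 888 to 942 TPM in irises. In corrected explants, 8 of 10 macrophage markers were called higher than in livers and 9 of 10 higher than in hepatocytes, and in spheroids 5 of 10 were called higher than in hepatocytes, while 3 of 9 were called lower in hepatocytes than in livers. Their part in the differences of the lipogenic genes was not tested.

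Cell types other than hepatocytes that make fat were sought in the irises. Adipocyte markers summed to 4.69 to 8.39 TPM there, with Adipoq, Lep and Plin1 at 0 counts in every iris. Markers of sebaceous and meibomian glands summed to 79.1 to 92.8 TPM, with Awat1, Dgat2l6 and Krt79 at 0 counts. Schwann cell markers summed to 620 to 670 TPM in irises, with 8 of 8 at a mean of 1 TPM or more, against 17.3 to 29.6 TPM in livers. In hepatocyte fractions the sum of the gland markers, 519 to 1560 TPM, was mostly Elovl3. The part of these cell types in the iris levels of Acly, Thrsp and Fasn was not tested.

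The patterns of the regulators over the 5 groups, before correction, were matched against 13388 genes with a mean of at least 10 TPM in a group. Nearest to Srebf1, by the root mean square difference of the centred log2(TPM + 1) group means over 5 groups, were TrnI (0.0458), Txndc5 (0.0885) and Lpgat1 (0.0891). Nearest to Mlxipl were Plk3 (0.153), Gm30784 (0.204) and Mup-ps20 (0.207). Plk3 had means of 53.4 TPM in hepatocyte fractions, 32.4 TPM in livers, 24.3 TPM in spheroids and 1.70 TPM in irises. With 5 groups, many genes can share a pattern.

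Depth differed between the genes. Scd1 reached 1.22 counts per base of exon in a library and Thrsp 0.965, where the highest of any gene of at least 500 bases was 1.70. Duplicate reads had been removed before counting, and the effect of this on levels near that ceiling was not tested. The other 8 genes stayed at or under 0.412 counts per base.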

How the data were processed

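Bulk RNA of 16 samples (48 libraries) was analysed. Per the labels and the study's methods, Smart-seq3 libraries were aligned to mm10 with TopHat2, duplicates were removed, and featureCounts v1.4.6-p5 assigned reads to exons, counting a read for every gene it overlapped. The authors deposited counts per library and per sample (sums of 3 libraries). The deposited TPM equalled TPM recalculated from these counts. A deposited table with signal in units of TPM held explants after subtraction of iris. For explant 4 the subtracted term was the iris mean minus the fraction, in place of the iris mean times the fraction. The formula of the methods was therefore applied to all 5 explants, with the iris share solved from the deposited tables and negative values set to 0.

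The quasi-likelihood test of edgeR 4.0.16 was run on counts after TMM scaling and filterByExpr (SE as the absolute log2 fold change over the square root of F) in R 4.3.3, and corrected TPM were tested with limma 3.58.1 (trend) on log2(TPM + 1), for genes with a mean of at least 1 TPM. Adjustment was over all genes tested. Alternatives were DESeq2 1.42.0, limma-voom, other size factors, filters and pseudocounts, library a alone, all groups in 1 fit, a replicate block, other iris corrections, and each sample left out. Symbols matched 46005 genes. Promoters came from RefSeq (GRCm38.p6). ERCC controls (418 counts, 0.000586% of counts) were left out. The edgeR and limma tests were tried on simulated data of the comparisons made on counts, with 1 fixed spread between samples. No simulation held iris mixing or the iris correction. The members and lists were chosen with earlier results of these data known. Named genes are the 10 members in every comparison, up to 4 called genes per other list by the largest absolute log2 difference, and the 3 genes nearest in pattern to Srebf1 and to Mlxipl. Some genes that this rule names are not reported here. Python 3.11.15 with pandas 2.3.3 and matplotlib 3.10.9 was used.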

Additional observations from a re-analysis of the deposited data

Results flagged for a closer look

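Among the 5 explants, the gap between the most extreme explant and its neighbour was compared with the range for the 10 genes before and after iris correction, 20 sets of values in all. Chance flags about 1 in 20 such sets. Acly in explant 2 stood apart in both: its level was 267 TPM before correction, where the other 4 explants had 310.1 to 317 TPM (gap 0.854 of the range), and 171 TPM after it, where the others had 307 to 341 TPM (gap 0.804 of the range). Both values come from the same counts. The limit for 5 samples is 0.71.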

How the results depend on the processing

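Number of genes called. In explants against irises, where 2 were called, 4 were called with no fold limit, and 1 to 2 with a sample left out. In hepatocytes against livers (0 called), 1 was called with DESeq2, with no filter and with all 5 groups in 1 fit, and 0 to 1 with a sample left out. In spheroids against hepatocytes (3 called), 1 was called with library size alone, 4 with no filter and 1 to 3 with a sample left out. In corrected explants against livers (1 called), 0 were called with no filter, the deposited corrected values, the iris share by least squares or scaling to hepatocyte genes, 2 with a mean of at least 10 TPM, 6 before correction and 0 to 2 with a sample left out. Against hepatocytes (1 called), 5 were called before correction, and against spheroids (0 called) 5 before correction and 1 with a mean of at least 10 TPM. The cause was not tested. Over all genes, the calls ranged from 583 to 1975 (1085 as reported), 8 to 1205 (333), 1466 to 3163 (2112), 186 to 9896 (3104), 2057 to 11028 (3933) and 165 to 8622 (1263) in the 6 comparisons in the same order. Of 947 values of single genes under an alternative, 843 kept direction and call, 24 lost the call, 26 gained one and 54 changed direction.

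The replicate block used only the numbers found in both groups. Explants thus entered with explants 1 and 2 alone, against samples 1 and 2 of the other group. The effects of the block and of the samples left out were not told apart. With the replicate block, 1 gene was called in explants against irises, with Mlxipl at 1.13 (adjusted p = 0.115), and 0 in corrected explants against livers. Mlxipl lost its call against hepatocytes (-2.28, adjusted p = 0.0601) and Thrsp gained one (-2.45, adjusted p = 0.00536). The labels tie the numbers to no shared mouse or batch. Hepatocytes and livers of the same number correlated at 0.116, 0.0755 and -0.0195, and 1 of 3 correlated best with its own number. With 2 pairs each, spheroids correlated with hepatocytes at 0.0982 and 0.135 and with explants at 0.136 and 0.0735, 2 of 2 best with their own number, whereas explants correlated at 0.0489 and -0.116 with irises, 0.0146 and -0.124 with livers, and -0.0290 and -0.0603 with hepatocytes, 0 of 2 best with their own number. In these fits of fewer samples, Acly (-0.0388), Elovl6 (-0.0632) and Thrsp (-0.11) changed direction in explants against irises, and Scd1 in corrected explants against hepatocytes (0.11).

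In explants against irises, Acaca, Acly and Elovl6 were -0.0276, -0.0221 and -0.0227 with library size alone and -0.15, -0.0313 and -0.0937 with library a alone. In corrected explants against livers, Acly was 0.36 with scaling to hepatocyte genes, and before correction Scd1 was -1.28 and Pnpla3 0.0581. Against hepatocytes, Srebf1 was -0.16 with the deposited values and -0.46 before correction, and with scaling Fasn was 0.19, Acaca 0.43, Acly 0.58 and Scd1 0.61. Against spheroids, before correction, Acly was 0.0130 and Scd1 -1.20.

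With a sample left out, values spanned 0 in explants against irises for Acaca (-0.00651 to 0.10), Acly (-0.0158 to 0.10), Elovl6 (-0.0724 to 0.20), Thrsp (-0.0779 to 0.22) and Pnpla3 (-0.64 to 0.10), and in hepatocytes against livers for Fasn (-1.04 to 0.38), Acacb (-0.26 to 1.75), Acly (-0.56 to 0.82), Elovl6 (-1.68 to 0.51), Thrsp (-0.63 to 0.25) and Pnpla3 (-1.25 to 2.94). They did so in spheroids against hepatocytes for Fasn (-1.19 to 0.12), Acly (-1.18 to 0.0650), Elovl6 (-1.39 to 0.42) and Pnpla3 (-1.95 to 0.49), in corrected explants against livers for Acacb (-1.44 to 0.17) and Acly (-0.55 to 0.14), against hepatocytes for Srebf1 (-0.24 to 0.31), Fasn (-1.13 to 0.11), Acaca (-0.68 to 0.34), Acly (-0.84 to 0.48) and Elovl6 (-1.30 to 0.0855), and against spheroids for Acly (-0.15 to 0.10). Where a sample left out leaves 1 spheroid sample, that sample is assumed to vary like the hepatocytes. Of 150 mean levels from libraries a, b or c apart, 138 lay within 1 SD of the summed value.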
